A study of Homo sapiens with 4 samples.

Results

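The variable region of tRNA is the stretch between the anticodon stem and the T arm. It was taken as every nucleotide that the deposited numbering placed at canonical position 44, 45, 46, 47 or 48 or in a column headed v, the columns that hold the additional nucleotides of long variable arms. This gave 313 nucleotides of the 3721 nucleotides in the 48 tRNA references: 48 at position 44, 39 at 45, 48 at 46, 30 at 47, 48 at 48 and 100 under v. The rule rests on position alone and used no measured value, though it was set with earlier results of these data known.

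The material was tRNA purified by ion exchange from HCT116, an established human colorectal carcinoma cell line, either wild type (WT) or with a knockout of TRMT1L (TRMT1L KO), a relative of the tRNA guanosine methyltransferase TRMT1, with 2 libraries of each. Both genotypes were grown in the same medium, high-glucose DMEM with fetal bovine serum and antibiotics, without further treatment. In Nano-tRNAseq the tRNA is deacylated, ligated to adaptors and linearised by reverse transcription, and a nanopore then reads the RNA itself, not a copy. The readout is the rate of wrong bases (mismatch), skipped bases (deletion) and added bases (insertion) at each nucleotide, which modified nucleotides, neighbouring nucleotides and the base itself can all alter. The labels do not say whether a genotype is 1 clone, nor whether its libraries came from separate cultures. The p-values below therefore measure no more than how far these libraries lie apart, and that distance may be technical. TRMT1L RNA or protein was not measured, so the knockout has no direct check here.

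The variable region closes the core of the folded molecule. Several of its nucleotides make tertiary contacts with the D arm, and position 48 forms the Levitt pair with position 15. Position 46 carries 7-methylguanosine, made by METTL1 with WDR4, in a group of human tRNAs. Position 47 of many tRNAs is a bulged uridine, which DUS3L reduces to dihydrouridine in human cells and which carries an aminocarboxypropyl group (acp3U) in some tRNAs of Escherichia coli. Position 48 carries 5-methylcytidine, made by NSUN2 in mammals. Serine and leucine tRNAs of the nucleus-encoded set have a long arm in place of the short loop, and in serine tRNAs that arm is a main contact of seryl-tRNA synthetase. The sheets hold no bases and none of these modifications was measured directly, so the reference nucleotide at each position is not stated below, and no sequence is shown.

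The references fell into 3 kinds by the length of the region. In 30 references the region had 5 nucleotides, 44 to 48. In 9 references it had 4, with no position 47: 1 aspartate, 2 glutamine, 2 glutamate, 3 glycine and 1 histidine tRNA. The remaining 9, 5 leucine and 4 serine tRNAs, had no 45 and no 47 and between 10 and 12 nucleotides under v, 13 to 15 in the whole region. The summed error of a nucleotide is its mismatch, deletion and insertion rate together, in percent, and the means below run over references within a library and then over the 2 libraries (± SD, n = 2).

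In WT cells the variable region was read with more errors than the rest of the tRNA. Its summed error averaged 39.0% and 39.9% in the WT libraries, against 30.4% in both over the other 3408 tRNA nucleotides, a gap of 9.08 ± 0.680 points (SD, n = 2). The gap lay in deletions, which were higher in the region by 6.15 ± 0.330 points, and in mismatches, higher by 2.96 ± 0.360 points. Insertions differed by -0.0283 ± 0.0104 points. Mismatches made up 52.6% of the summed error in the region, deletions 41.1% and insertions 6.29%.

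The levels of the numbered positions ran from 23.5% to 59.9%. Position 47 had the highest level of the region, 58.5% and 61.4% in the WT libraries (59.9% ± 2.00), and ranked 5 among the 79 position labels of the molecule by mean summed error. Position 45 followed at 45.5% ± 0.279 and rank 14, and the v nucleotides (39.5% ± 0.877), position 46 (39.2% ± 0.0450) and position 44 (38.03% ± 0.940) held ranks 22, 23 and 26. The v nucleotides and position 46 differed by less than the spread between libraries, and position 44 was lower than both in each library. Position 48 was the lowest at 23.5% ± 0.0322 and rank 53. The mean at 47 covers only the 30 references with a 5-nucleotide region, while most labels cover all 48. The ranks here and below therefore compare unlike sets of tRNAs. In those 30 references position 45 averaged 54.6% and position 46 averaged 49.7%.

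By kind of error, position 47 was split evenly, with 27.9% ± 0.0987 mismatch, 27.8% ± 1.82 deletion and 4.26% ± 0.0885 insertion. Its deletion rate ranked 1 of the 79 position labels, its mismatch rate 12 and its insertion rate 9. Position 46, the site of methylguanosine, had 21.3% ± 0.195 mismatch, 15.6% ± 0.359 deletion and 2.30% ± 0.209 insertion, so that mismatches made up 54.3% of its errors. Position 48, the site of methylcytidine, had 12.1% ± 0.186 mismatch, 9.20% ± 0.530 deletion and 2.21% ± 0.312 insertion. Position 44 was the only one of the 5 with more deletion (19.0% ± 0.952) than mismatch (17.3% ± 0.124), and position 45 had 23.8% ± 0.00369 mismatch and 20.0% ± 0.345 deletion. Positions 45 and 44 ranked 4 and 7 by deletion, so 3 of the 7 highest deletion rates of the molecule lay in the variable region.

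**Figure D1:**
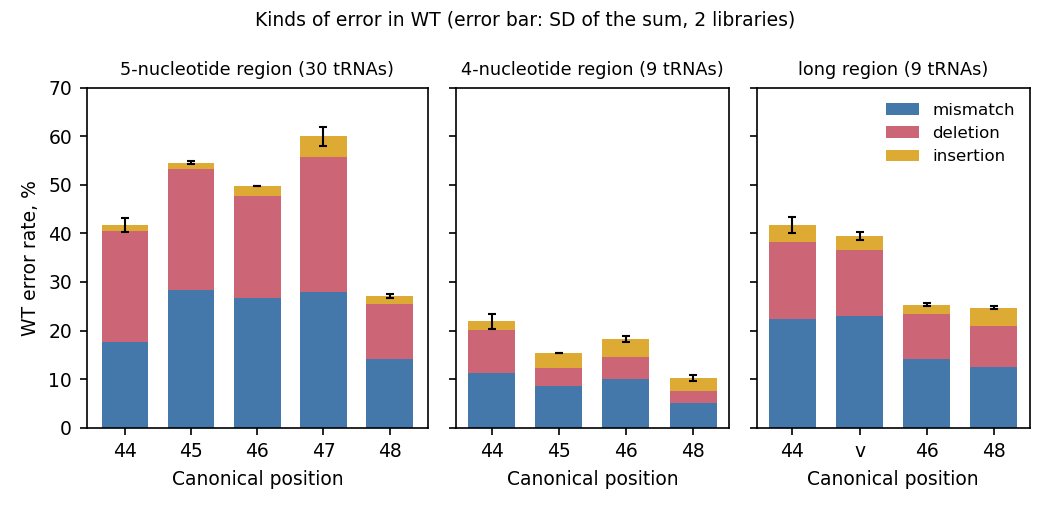
Mean WT rate (%) of mismatch, deletion and insertion, stacked, at each position of the variable region in tRNAs with 5-nucleotide, 4-nucleotide and long regions; error bars are the SD of the summed error over 2 libraries. Deletions are a large part of the bars in the 5-nucleotide regions, and the bars of the 4-nucleotide regions are the lowest at every position they share.

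The 2 kinds of short region differed at every position they share. At the 4 positions that both kinds of short region hold, the 5-nucleotide regions averaged 26.8 ± 1.26 points above the 4-nucleotide regions in WT (25.9 and 27.7 points in the 2 libraries). The gap was 19.8 ± 3.08 points at 44, 39.2 ± 0.384 at 45, 31.4 ± 0.618 at 46 and 16.8 ± 0.962 at 48. In the rest of the tRNA the same 30 references lay 4.98 ± 0.261 points above the 9. The KO libraries repeated the gap, at 25.5 and 26.3 points. These are 2 sets of different tRNAs, their base composition was not measured, and only the spread between libraries was assessed.

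Mean levels in the 5-nucleotide regions were 41.7% ± 1.50 at 44, 54.6% ± 0.367 at 45, 49.7% ± 0.0148 at 46, 59.9% ± 2.00 at 47 and 27.1% ± 0.312 at 48. In the 4-nucleotide regions they were 21.9% ± 1.58, 15.3% ± 0.0168, 18.3% ± 0.603 and 10.3% ± 0.650 at 44, 45, 46 and 48. Deletions carried 15.2 ± 0.986 points of the gap and mismatches 12.9 ± 0.249 points. Insertions ran the other way, higher in the 4-nucleotide regions, with a difference of -1.31 ± 0.0241 points, and made up 20.6% of all errors at position 46 there against 4.02% in the 5-nucleotide regions. Against the rest of their own molecule, 5-nucleotide regions lay 15.4 ± 0.814 points higher and 4-nucleotide regions -9.79 ± 0.477 points, that is, lower. The first of these values includes position 47, which the 4-nucleotide regions lack. The 9 references were also lower just before the region, at 18.3% against 41.8% at position 43, and they were the higher ones at position 51 of the T stem (45.4% against 30.5%).

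**Figure D2:**
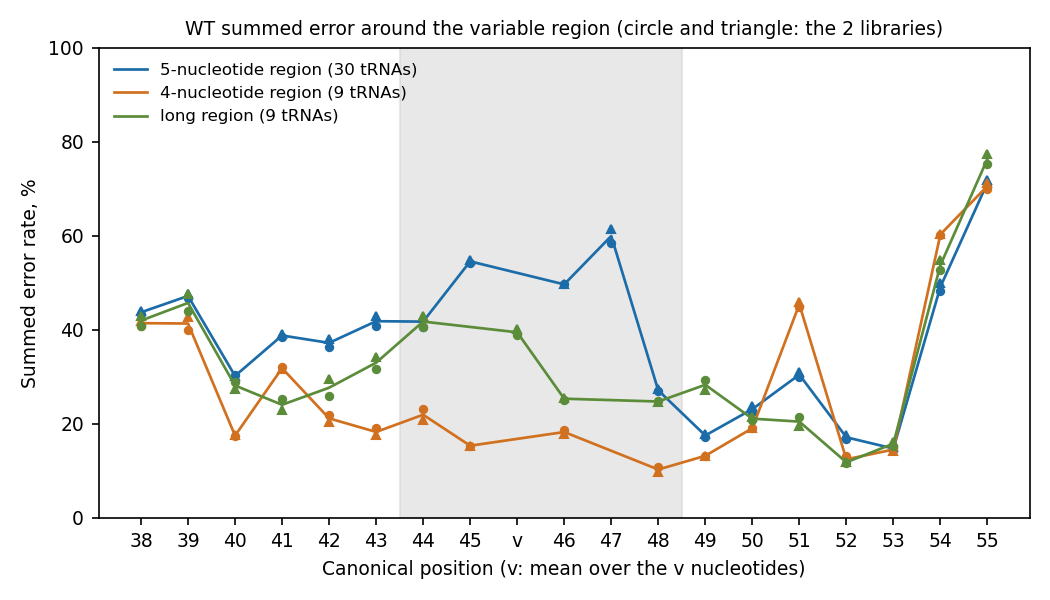
WT summed error rate (%) from position 38 to 55, as the mean over references with 5-nucleotide, 4-nucleotide and long regions (lines), with each WT library as a circle or triangle and the variable region shaded. The 3 lines run from 41.4% to 43.7% at position 38, spread from 10.3% to 59.9% in the shaded region and run from 14.5% to 15.8% at position 53.

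Long regions lay between the short ones. Over the whole region the long references averaged 37.6% ± 0.811, which was -3.18 ± 0.272 points against all 39 short references, and at the numbered positions alone the difference was -10.2 ± 0.0268 points. At position 44 the long and 5-nucleotide references were level (41.8% ± 1.60 against 41.7% ± 1.50), at 46 the long ones had 25.3% ± 0.314 against 49.7%, and at 48 they had 24.7% ± 0.218 against 27.1%. By kind, long regions had 1.43 ± 0.840 points more mismatch, 0.636 ± 0.142 points more insertion and a deletion difference of -5.25 ± 0.711 points. In the rest of the tRNA, long references were higher than short ones by 1.72 ± 0.0225 points.

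**Figure D3:**
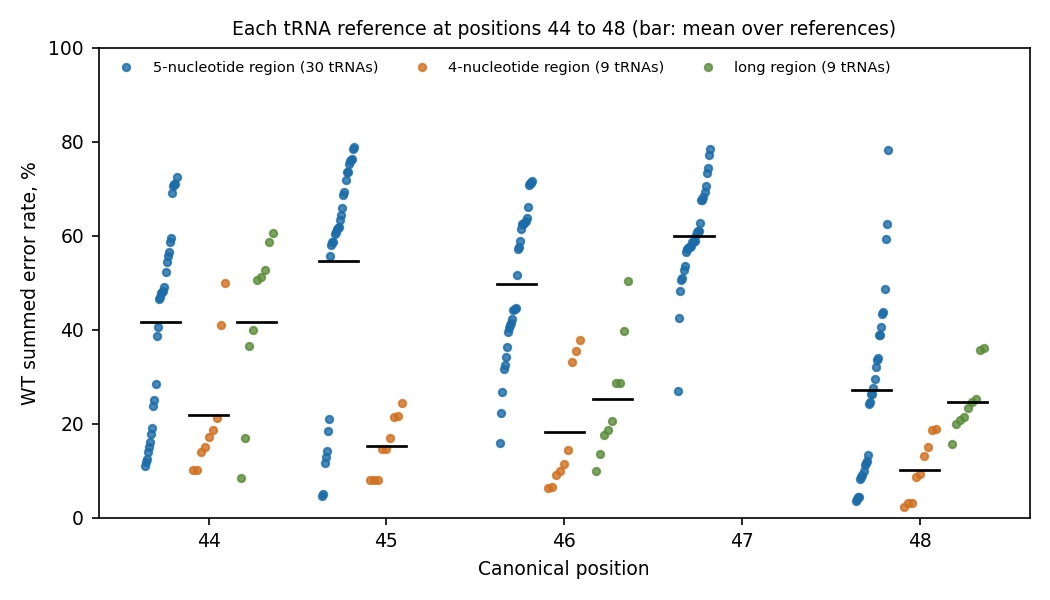
WT summed error rate (%) of each tRNA reference at positions 44 to 48 (points, mean of 2 libraries) by kind of variable region, with the mean over references as a bar. At position 45 the 5-nucleotide references split into 7 points at or under 21.0% and 23 points above 55%; at position 47 all but 3 points lie above 50%.

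Position 46 ranged over references from 6.32% to 71.7% (median 39.7%). Mismatch was the most frequent error at 33 of 48 references and deletion at 15. The highest 3 were Tyr-ATA-1-1 (70.6% and 72.7% in the WT libraries), Trp-CCA-4-1 (73.1% and 69.4%) and Ala-AGC-8-2 (69.3% and 73.1%), which differed among themselves by less than the spread between libraries. In Trp-CCA-4-1 mismatch made up 54.9 points and deletion 14.03 points. The lowest 3 all had 4-nucleotide regions: Gln-CTG-1-1 (7.48% and 5.17%), Asp-GTC-2-6 (7.69% and 5.41%) and Glu-TTC-1-1 (8.75% and 9.31%). The 2 valine references Val-AAC-1-4 and Val-CAC-1-1 had the most deletion at 46, 44.98% and 44.5%. His-GTG-1-5 stood out by insertion, with 13.2% and 12.9% in the WT libraries and 33.1% summed error.

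Position 47 was high almost throughout. The summed error was above 50% in 27 of 30 references and under 20% in none, and the median was 58.9%. The highest were Pro-TGG-3-3 (76.5% and 80.3%), Ile-TAT-3-1 (73.0% and 81.4%) and Pro-CGG-2-1 (71.4% and 77.3%), and all 3 proline references together ran from 68.3% to 78.4%. The lowest were Trp-CCA-4-1 (25.2% and 29.0%), Arg-ACG-1-2 (41.2% and 43.8%) and Arg-TCG-1-1 (47.6% and 48.8%). Trp-CCA-4-1 thus combined one of the highest levels at 46 with the lowest at 47.

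The kind of error at 47 differed among amino acids. Deletion led in Ala-CGC-2-1 (49.4% ± 2.73), Val-CAC-1-1 (46.7%) and Val-AAC-1-4 (45.5% ± 2.30), and mismatch in Lys-TTT-3-3 (46.9%), Lys-CTT-3-1 (45.3%) and Asn-GTT-2-1 (43.1%). Over references, mismatch was the larger in 16 and deletion in 14. Insertions, 4.26% on average, reached 14.3% ± 1.06 in Arg-CCG-2-1, 11.96% ± 1.45 in Thr-AGT-3-1, 9.90% ± 0.994 in Thr-CGT-1-1 and 9.66% ± 1.80 in Thr-TGT-1-1. In the valine pair they were 0.694% in Val-CAC-1-1 and 1.02% in Val-AAC-1-4.

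Position 48 ranged widely over references, with a median of 21.0%. It was under 20% in 23 of 48, all 9 references with 4-nucleotide regions among them, and above 50% in 3. Asn-GTT-2-1 had 78.3% and 78.2% in the WT libraries, 49.0 points of it mismatch and 28.2 points deletion. Val-AAC-1-4 had 62.1% and 62.9% and Val-CAC-1-1 58.8% and 59.7%, with more deletion (39.3% and 37.6%) than mismatch. The third valine reference, Val-TAC-1-1, was at 4.13% and 4.70%, so references of 1 amino acid spanned 58.1 points at this position while at 45 they lay within 2.94 points. The lowest were Glu-TTC-1-1 (2.35% and 2.13%), Gly-GCC-2-1 (2.75% and 3.39%) and Glu-CTC-1-1 (3.32% and 3.14%). The 3 proline references were at 3.48% to 4.38%.

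Position 44, which pairs with position 26 across the top of the anticodon stem, ranged from 8.40% to 72.5%. The highest were Ile-TAT-3-1 (72.4% and 72.7%), Lys-TTT-3-3 (68.6% and 73.7%) and Val-AAC-1-4 (70.6% and 71.5%), each with more deletion (40.1% to 41.1%) than mismatch. The lowest were Leu-AAG-2-3 (8.27% and 8.53%), of which 6.06 points were insertion, Gln-CTG-1-1 (10.7% and 9.62%) and His-GTG-1-5 (10.9% and 9.58%). In serine tRNAs, whose position 44 is a 2'-O-methyluridine made by Trm44 in yeast, the 4 references ran from 50.6% to 60.6%. The 5 leucine references ran from 8.40% to 51.2%.

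Position 45 split the 5-nucleotide references. The 4 arginine references Arg-ACG-1-2, Arg-TCG-1-1, Arg-CCG-2-1 and Arg-CCT-1-1 and the 3 threonine references lay between 4.69% and 21.0%, and the other 23 between 55.7% and 78.8%, with none in between. The lowest were Arg-ACG-1-2 (4.40% and 4.99%) and Arg-TCG-1-1 (5.12% and 5.07%), followed by Gln-CTG-1-1 with a 4-nucleotide region (8.64% and 7.27%). The remaining arginine reference, Arg-TCT-1-1, was at 69.3% ± 0.133, in the upper set. The highest were Met-CAT-5-2 (80.2% and 77.4%), Ile-AAT-8-1 (79.9% and 77.0%) and Pro-TGG-3-3 (75.1% and 77.7%). In Ile-AAT-8-1 deletion made up 57.7 points, while in Pro-TGG-3-3 mismatch made up 67.2 points and deletion 8.31.

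Some references carried 1 kind of error through the whole region. In Val-AAC-1-4 deletion was 40.8%, 44.2%, 44.98%, 45.5% and 39.3% at 44, 45, 46, 47 and 48, a range of 39.3% to 45.5% over 5 neighbouring nucleotides. The proline references alternated instead, with means of 13.9% at 44, 72.8% at 45, 32.8% at 46, 73.7% at 47 and 3.98% at 48. The threonine references were low at 44 and 45 (17.7% and 12.9%), higher at 46 and 47 (41.2% and 58.8%) and low again at 48 (9.52%). A skipped base inside a run of like bases can be placed at any of them by the aligner, and references of similar sequence can exchange reads, so neighbouring values and values of 1 amino acid are not independent.

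Across the 30 references with 5 nucleotides, positions 44, 45 and 46 varied together, with Pearson correlations of 0.573 (44 and 45), 0.588 (44 and 46) and 0.568 (45 and 46). Position 47 did so less, at 0.0609 with 44, 0.273 with 45, -0.115 with 46 and -0.225 with 48. These describe 30 references that share the same libraries, adjacent nucleotides and reads, and they have no test.

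The 9 long arms ranged over their v nucleotides from 6.504% to 87.4% in WT. By mean over v nucleotides they ran from Leu-TAG-1-1 (48.03% ± 0.739) through Leu-CAA-4-1 (44.7% ± 0.991), Ser-GCT-5-1 (44.6% ± 0.715), Leu-AAG-2-3 (41.7% ± 0.529), Ser-AGA-2-5 (38.3% ± 0.751), Ser-CGA-2-1 (37.6% ± 1.49), Ser-TGA-1-1 (36.2% ± 0.915) and Leu-CAG-1-4 (34.4% ± 0.9203) to Leu-TAA-1-1 (30.9% ± 0.823). Leu-CAA-4-1 and Ser-GCT-5-1 did not differ beyond the spread between libraries, nor did Ser-AGA-2-5 and Ser-CGA-2-1. As families, leucine and serine arms differed by less than the spread between libraries, at 39.7% ± 0.805 over 56 nucleotides and 39.2% ± 0.968 over 44. Mismatch was the most frequent error at 78 of the 100 v nucleotides, deletion at 20 and insertion at 2.

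The highest v nucleotides all lay in leucine arms. Counting v nucleotides from the 5′ side, nucleotide 5 of Leu-AAG-2-3 had 85.9% and 89.0% in the WT libraries, the fourth of Leu-TAG-1-1 86.0% and 87.5%, and the fifth of Leu-TAG-1-1 85.2% and 88.1%. Mismatch led in each, at 49.9 to 60.8 points. The lowest were the fourth of Leu-CAG-1-4 (6.17% and 6.83%), the fourth of Leu-AAG-2-3 (7.61% and 6.63%) and the eleventh of Leu-AAG-2-3 (7.96% and 7.54%). In Leu-AAG-2-3 the fourth v nucleotide at 7.12% therefore stood next to the fifth at 87.4%. Leu-CAG-1-4 differed from the other arms by kind, with 20.3% ± 0.573 deletion against 12.9% ± 0.383 mismatch over its arm and 52.0% deletion at its seventh v nucleotide. Leu-TAA-1-1 had the most insertion, 5.32% ± 0.0454 over its arm, with 12.2% at the ninth v nucleotide.

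Serine arms repeated 1 profile in 3 of the 4 references. Ser-AGA-2-5, Ser-CGA-2-1 and Ser-TGA-1-1 had Pearson correlations of 0.944 to 0.982 with each other over 11 v nucleotides and differed by at most 9.47 points at any of them. Each was lowest at nucleotides 9 and 10 (10.9% to 15.6%) and highest at the eleventh (63.2%, 67.2% and 63.5%), where mismatch made up 53.3, 61.1 and 56.4 points. Ser-GCT-5-1 shared neither, with correlations of 0.157 to 0.232 with the other three, its highest value at the first v nucleotide (68.5%) and 36.9% at the eleventh. Among leucine arms of equal length, Leu-AAG-2-3 and Leu-CAG-1-4 had a correlation of -0.222 over 11 nucleotides with gaps up to 77.2 points, and Leu-CAA-4-1 and Leu-TAA-1-1 one of 0.447 over 12. The references share libraries, and similar serine sequences can share reads.

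**Figure D4:**
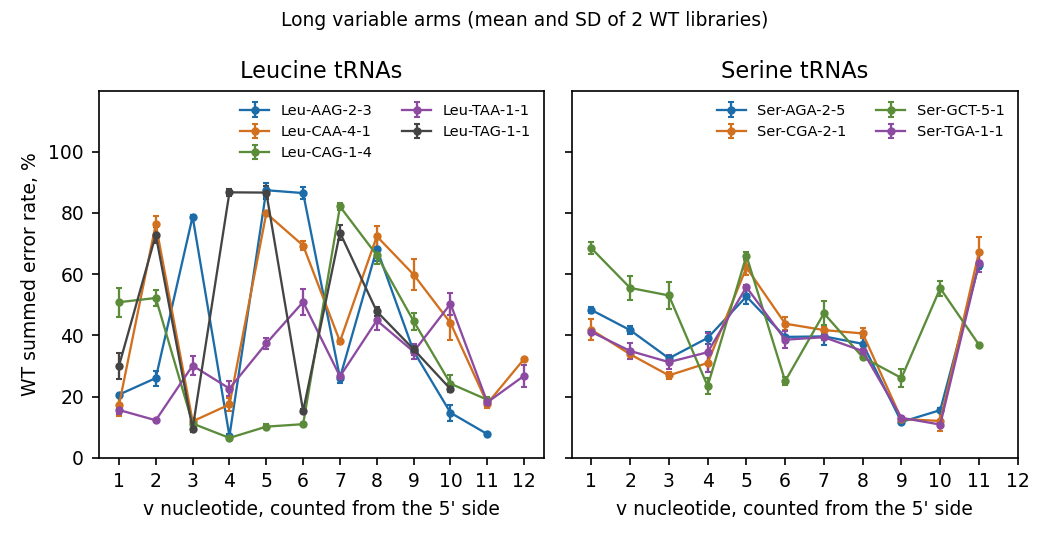
WT summed error rate (%) along the v nucleotides of the 5 leucine and 4 serine references, numbered from the 5′ side, as mean and SD of 2 libraries. The lines of Ser-AGA-2-5, Ser-CGA-2-1 and Ser-TGA-1-1 run together within 9.47 points, while the leucine lines cross between 6.504% and 87.4%.

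The knockout was then set against WT, the question of the series being which tRNA modifications depend on TRMT1L. In the variable region no nucleotide passed the limma test of the summed error (0 of 313, smallest adjusted p = 0.287, Benjamini-Hochberg over all 3721 nucleotides), where 0.591% of all tRNA nucleotides passed. The same held by kind, with 0 of 313 for mismatch (smallest limma adjusted p = 0.188, 0.511% of all nucleotides passing), deletion (0.0675 and 1.16%) and insertion (0.689 and 0.107%). At an unadjusted p under 0.05, limma found 17 nucleotides of the region for the summed error (5.43%, against 9.19% of all nucleotides), 9 for mismatch (2.88% against 6.83%), 19 for deletion (6.07% against 11.2%) and 12 for insertion (3.83% against 5.64%). Both KO libraries lay above both WT libraries at 22.4% of the region's nucleotides (30.4% of all) and below at 9.27% (7.95% of all). Without KO replicate 2 the deletion test passed 3 nucleotides of the region (0.958%, against 1.50% of all nucleotides) and without WT replicate 2 it passed 2 (0.639% against 1.37%), all in Arg-CCG-2-1, Glu-CTC-1-1 and His-GTG-1-5. For the summed error each of these settings passed 1 (0.319%), against 2.07% and 1.34% of all nucleotides, and without KO replicate 2 mismatch also passed 1, against 1.72%.

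These 0 counts have a limited resolution. In simulated data for the summed error, the test recovered 47.8% of changes of 5 points and 88.1% of 10. The 95% interval of a difference had a median half-width of 4.49 points for the summed error, 3.39 for mismatch, 2.68 for deletion and 0.779 for insertion. These intervals come from a separate limma fit of untransformed rates and are not adjusted for the number of tests. An interval can thus exclude 0 where the adjusted test does not pass. Only 5 of the 313 differences of the summed error exceeded 5 points. An exact permutation test of 2 libraries against 2 cannot give a p below 0.3333, so single values of means have no test that could pass.

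By position, the mean summed error in the KO libraries was 38.9% and 38.6% at 44 (WT 37.4% and 38.7%), 46.3% and 45.95% at 45 (WT 45.3% and 45.7%), and 40.1% and 39.7% at 46 (WT 39.2% in both). It was 59.6% and 59.9% at 47 (WT 58.5% and 61.4%), 24.9% and 24.4% at 48 (WT 23.5% in both), and 39.7% and 40.1% over the v nucleotides (WT 38.8% and 40.1%). The genotypes did not overlap at 45, 46 and 48 (exact permutation p = 0.3333 each, the smallest possible) and overlapped at 44, 47 and v. They did not overlap over all tRNA nucleotides together either, so the separation is not particular to these positions. The KO minus WT difference was 0.739 points at 44, 0.616 at 45, 0.698 at 46, -0.196 at 47, 1.13 at 48 and 0.410 over v. All tRNA nucleotides together differed by 0.828 points (WT 31.1% and 31.2%, KO 31.9% and 32.1%), and the part of this general difference in each value was not tested. With the library mean subtracted, the differences were -0.0885 points at 44, -0.212 at 45, -0.130 at 46, -1.02 at 47, 0.305 at 48 and -0.418 over v. Leaving out a WT library moved several of these values: without WT replicate 1 the difference was 0.0749 points at 44, -1.61 at 47 and -0.210 over v, and without WT replicate 2 it was 1.40, 1.22 and 1.03. Over v it was 0.189 without KO replicate 2 and 0.630 without KO replicate 1, and at 47 it was -0.0854 without KO replicate 1 and -0.308 without KO replicate 2. At 45 the difference of the medians over references was -1.13 points.

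At position 48, 35 of 48 references had a higher mean summed error in KO, and 45 of 48 a higher deletion rate, while over the other tRNA nucleotides these counts were 2391 and 2516 of 3408. For deletion, both KO libraries lay above both WT libraries at 37.5% of the 48, against 35.7% of the other nucleotides. They lay below at 0% against 6.98%. The references share the same libraries and are not replicates. The mean deletion rate at 48 was 8.82% and 9.57% in WT and 10.0% and 9.72% in KO. At position 47 mismatch was 27.8% and 27.9% in WT and 27.5% and 27.2% in KO, a difference of -0.515 points, and insertion was 4.19% and 4.32% against 4.06% and 3.95%, a difference of -0.248 points. Neither pair of genotypes overlapped (exact permutation p = 0.3333 for each, the smallest possible), and both differences were under 1 point. At position 46 mismatch differed by 0.117 points with overlapping libraries and deletion by 0.640 points without overlap (15.4% and 15.9% against 16.2% and 16.3%).

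**Figure D5:**
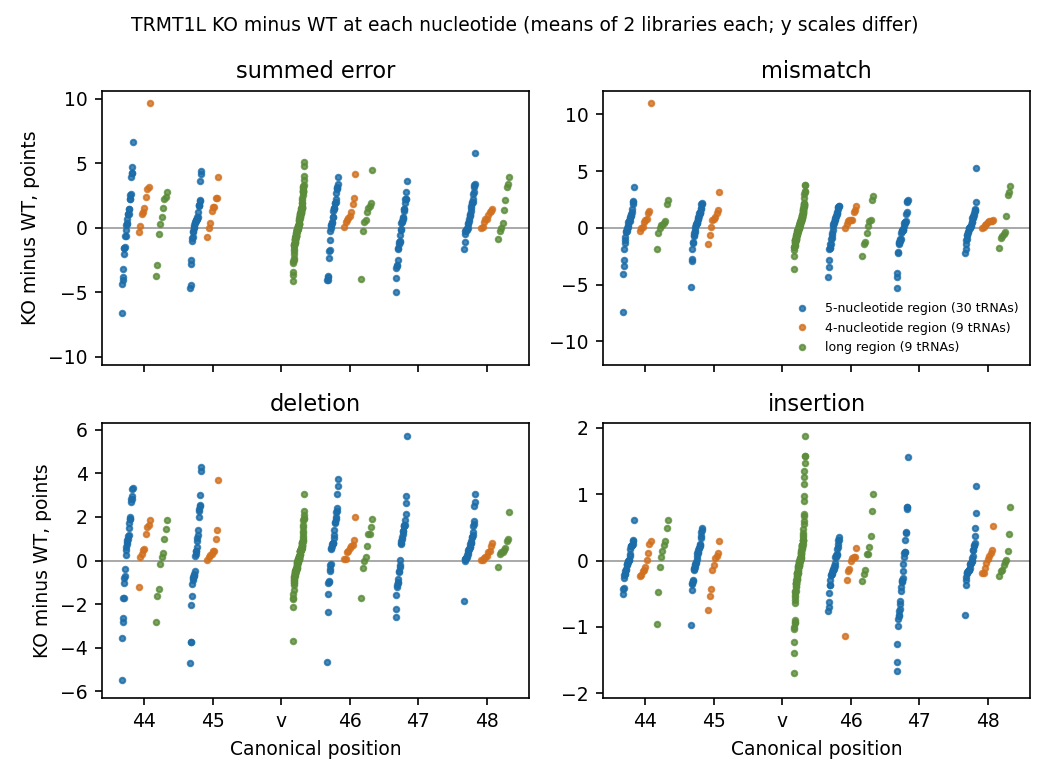
TRMT1L KO minus WT difference (percentage points, means of 2 libraries each) at each nucleotide of the variable region by position, for the summed error, mismatch, deletion and insertion; each point is 1 nucleotide, coloured by kind of region, and the 4 y scales differ. The points lie on both sides of 0 at every position, from -6.60 to 9.68 points for the summed error, and none passed the limma test. At position 48, 45 of 48 deletion differences are above 0, against 2516 of 3408 over the other tRNA nucleotides.

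For the summed error averaged over positions, the differences between kinds of region moved between genotypes by less than the spread of the libraries. Long minus short regions gave -3.38 and -2.99 points in WT and -3.42 and -3.20 in KO. The gap of 5-nucleotide over 4-nucleotide regions was 26.8 ± 1.26 points in WT and 25.9 ± 0.536 in KO, with overlapping libraries (exact permutation p = 0.667). By kind of error, the mismatch part of that gap did not overlap, at 12.8 and 13.1 points in WT and 11.9 and 12.3 in KO, nor did the insertion part, at -1.324 and -1.290 points in WT and -1.285 and -1.225 in KO (exact permutation p = 0.3333 each, the smallest possible). At single positions, the gap in summed error shifted in KO by -2.07 points at 44, -0.914 at 46 and 0.392 at 48, with overlap. At 45 it shifted by -1.06 points without overlap, from 38.9 and 39.5 points in WT to 37.9 and 38.4 in KO. The variable region lay 9.08 points above the rest of the tRNA in WT and 8.82 ± 0.148 in KO, with overlap (exact permutation p = 1). The 36 nucleotides of the 4-nucleotide regions had the largest mean difference of the 3 kinds, 1.49 points, with 17.0% and 15.9% in WT and 18.3% and 17.5% in KO. Both KO libraries lay above both WT libraries at 30.6% of them, close to the 30.4% of all nucleotides, and below at 0%, against 7.95% of all. The difference was positive at 32 of 36, against 2391 of 3408 nucleotides outside the region, and reached 9.68 points at a single nucleotide. Against the rest of the same tRNAs, these regions moved by 0.480 points in KO, with overlapping libraries.

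The largest positive difference was at position 44 of Glu-TTC-1-1, a glutamate tRNA with a 4-nucleotide region. Its summed error was 50.07% and 50.04% in WT and 64.1% and 55.3% in KO, a difference of 9.68 points (95% interval 3.33 to 16.0, limma adjusted p = 0.287). Both KO libraries were above WT, but they lay further from each other than the second of them from WT. The difference was in mismatch, at 33.1% and 35.1% in WT against 50.9% and 39.3% in KO (10.99 points, limma adjusted p = 0.283). Without KO replicate 2 the difference was 14.1 points for the sum (limma adjusted p = 0.00234) and 16.8 points for mismatch (limma adjusted p = 4.28e-06). Without KO replicate 1 it was 5.27 points for the sum and 5.22 points for mismatch (limma adjusted p = 0.998 for each).

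Position 44 of Arg-CCG-2-1 followed, with 24.7% and 25.6% in WT and 33.5% and 30.0% in KO (6.62 points, limma adjusted p = 0.297). Its deletion rate, 4.01% and 4.20% in WT and 7.80% and 6.31% in KO, had the smallest adjusted p of the region for deletion (2.95 points, 95% interval 1.36 to 4.54, limma adjusted p = 0.0675). The KO libraries did not overlap WT for either measure. Without KO replicate 2 the deletion difference was 3.70 points. With all 4 libraries it passed the threshold when the tRNA ends were left out of the test (limma adjusted p = 0.0347). It also passed when nucleotides of low error were left out (limma adjusted p = 0.0104). That filter used the mean of all 4 libraries, with a cut of 0.05 as a fraction. Both WT rates were under the cut, so this nucleotide was kept only through its KO libraries, and that pass adds no support.

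The other 8 of the 10 largest positive differences of the summed error ran from 4.22 to 5.83 points, none past the limma test. Position 48 of Arg-TCT-1-1 was at 36.5% and 41.3% in WT and 45.5% and 44.004% in KO. The second v nucleotide of Leu-AAG-2-3 was at 24.3% and 27.8% against 32.3% and 30.0%, and the sixth of Leu-CAA-4-1 at 68.3% and 70.5% against 73.6% and 74.6%. The initiator tRNA iMet-CAT-1-6 was at 47.7% and 48.2% against 52.6% and 52.8% at position 44. The others were position 46 of Ser-AGA-2-5 (4.47 points), positions 45 and 44 of Arg-CCT-1-1 (4.42 and 4.25) and position 44 of Cys-GCA-3-1 (4.22). In all 8 both KO libraries were above both WT libraries, as at 30.4% of all tRNA nucleotides, and picking by size favours this.

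The largest negative difference was at position 44 of Tyr-ATA-1-1, with 44.6% and 49.2% in WT and 40.1% and 40.5% in KO (-6.60 points, 95% interval -11.8 to -1.37, limma adjusted p = 0.452). It lay in mismatch, 24.7% and 29.4% in WT and 20.1% and 19.2% in KO (-7.42 points), which had the smallest adjusted p of the region for mismatch (limma adjusted p = 0.188). In Tyr-GTA-2-1 mismatch at position 45 was 38.5% and 35.1% in WT and 32.4% and 30.8% in KO (-5.21 points, limma adjusted p = 0.596), with a deletion difference of 4.11 points there. At position 45 of Tyr-ATA-1-1 the KO mean of deletion was 4.30 points higher and that of mismatch differed by -0.747 points, with overlapping mismatch rates in the 2 genotypes.

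Ile-AAT-8-1 gave 3 of the 10 largest negative differences of the summed error: position 47 (58.0% and 56.8% in WT, 51.8% and 53.0% in KO), position 45 (79.9% and 77.0%, 70.3% and 77.7%) and position 44 (57.3% and 59.8%, 54.2% and 54.3%). At 47 the difference was in mismatch (-5.29 points) and at 44 and 45 in deletion (-5.46 and -4.68 points). The libraries overlapped at 45. Arg-TCT-1-1 gave 3 more, at 45 (-4.66), 44 (-4.07) and 46 (-4.01), the last with overlap, so that this reference was lower at 44 to 46 and higher at 48 in the means. At its position 46 deletion differed by -4.64 points and at its position 48 mismatch by 5.29 points. The remaining ones were the third v nucleotide of Leu-AAG-2-3 (-4.08), position 46 of Pro-AGG-1-1 (-4.02) and position 46 of Ser-GCT-5-1 (-3.95). The limma adjusted p of these 9 lay above the threshold in every case.

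Among the remaining leading differences by kind, deletion at position 47 of Pro-CGG-2-1 was 38.5% and 43.6% in WT and 49.6% and 43.96% in KO (5.72 points, limma adjusted p = 0.417). Mismatch at the fifth v nucleotide of Ser-TGA-1-1 differed by 3.80 points. Insertion differences were small, from -1.70 points at the first v nucleotide of Ser-CGA-2-1 (4.55% and 5.41% in WT, 3.72% and 2.85% in KO) to 1.88 points at the eighth of Ser-TGA-1-1 (1.90% and 3.01%, 4.43% and 4.24%). Position 47 of Tyr-ATA-1-1 (-1.66) and of Arg-CCG-2-1 (-1.53) followed on the negative side, and the fourth v nucleotide of Ser-TGA-1-1 (1.58) and the ninth of Ser-CGA-2-1 (1.57) on the positive side.

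Tyrosine tRNA is a known substrate of TRMT1L outside the variable region, and its 2 references are given with alanine and cysteine at 46, 47 and 48. In Tyr-GTA-2-1 the summed error was 62.4% in both WT libraries and 65.7% and 65.5% in KO at 46, 58.9% and 58.3% against 54.8% and 56.5% at 47, and 28.4% and 27.0% against 28.6% and 28.9% at 48. The genotypes did not overlap at these 3 positions, with KO higher at 46 and 48 and lower at 47. Among all tRNA nucleotides, both KO libraries lay above both WT libraries at 30.4% and below at 7.95%. In Tyr-ATA-1-1 the genotypes overlapped at all 3 positions, with differences of 1.90, -1.67 and -0.171 points. At 46 the deletion rate was 3.76 points higher in the KO mean of Tyr-GTA-2-1, and 3.39 points higher in that of Tyr-ATA-1-1.

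In alanine tRNAs, Ala-CGC-2-1 and Ala-TGC-3-1 were at 41.3% ± 2.19 and 39.5% ± 2.45 at 46 in WT and 44.1% ± 1.22 and 42.6% ± 1.21 in KO, without overlap of the libraries. The KO libraries were the higher ones in each, as at 30.4% of all tRNA nucleotides. Ala-AGC-8-2 was at 71.2% ± 2.64 and 70.2% ± 0.282. At 47 the 3 alanine references differed by 0.377 to 0.854 points with overlap. At 48 Ala-TGC-3-1 was at 11.99% and 12.1% in WT and 14.4% and 14.1% in KO, a difference of 2.22 points, while Ala-AGC-8-2 (2.79 points) and Ala-CGC-2-1 (0.935 points) overlapped. Cys-GCA-3-1 differed by 0.225, 1.32 and -0.485 points at 46, 47 and 48, with overlap at each. None of these 18 nucleotides passed the limma test (adjusted p 0.631 to 0.996).

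Averaged over its v nucleotides, the 9 long arms differed between genotypes by between -0.205 points in Leu-CAG-1-4 and 1.15 points in Ser-AGA-2-5. Ser-AGA-2-5 was the only arm without overlap of the summed error, at 37.8% and 38.8% in WT and 38.9% and 40.0% in KO. Among all single tRNA nucleotides, 30.4% had both KO libraries above WT. Ser-TGA-1-1 did not overlap in mismatch (1.09 points), deletion (-0.921) or insertion (0.260), which partly offset each other in the sum. Leu-CAA-4-1 and Ser-AGA-2-5 did not overlap in deletion, Ser-GCT-5-1 in mismatch, and Leu-CAG-1-4 and Leu-TAG-1-1 in insertion. Among single nucleotides outside the variable region, both KO libraries lay above WT at 25.7% for mismatch, 35.7% for deletion and 16.4% for insertion. They lay below at 10.8%, 6.98% and 17.5%. These are shares of single nucleotides, not of means over an arm. The leucine arms together were at 39.1% and 40.3% in WT and 40.0% and 39.9% in KO, and the serine arms at 38.5% and 39.8% against 39.2% and 40.3%. Both families overlapped between genotypes.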

How the data were processed

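Nano-tRNAseq of tRNA from WT and TRMT1L KO HCT116 cells gave 4 libraries, 2 per genotype, grouped by the genotype in the labels. The authors deposited error rates as a fraction from 0 to 1 in 12 sheets, per the file headers: mismatch, deletion and insertion for each library, over 48 references and 90 nucleotides, with a sheet of canonical positions. The submitters' processing notes name BWA, SAMtools and bedtools. For versions, settings, base caller, read filters and reads that match several references, the sources used here give nothing. Read depth is unknown, so no value is weighted by depth or has a counting interval. The 599 nucleotides of the 3' adaptor were left out.

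Fractions were turned into percent and the 3 kinds added to a summed error, which never exceeded 0.958 as a fraction. The arcsine square root of each rate was fitted with limma 3.58.1 (R 4.3.3; lmFit, eBayes with trend and robust) over all 3721 nucleotides, kinds apart, with Benjamini-Hochberg adjustment and a threshold of 0.05. Means over positions or kinds of region were compared over libraries with exact two-sided permutation tests (scipy 1.17.1; Python 3.11.15, pandas 2.3.3, numpy 2.4.6). Figures used matplotlib 3.10.9. In data simulated for the summed error over 3721 nucleotides, 200 of them were changed. The test recovered 47.8% of changes of 5 points, 88.1% of 10 and 100% of 20, with 15 false calls. It made 0 calls without change. The simulated noise was independent and normal, with the moderated variances of the fit itself, which real libraries need not follow.

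The members and the lists were chosen with earlier results of these data known. Named nucleotides are the 3 highest and 3 lowest WT levels at each position, the 10 largest differences of the sum and 3 of each kind in each direction, positions 46 to 48 of tyrosine, alanine and cysteine, and each long arm; others were singled out after their values were seen. Alternatives were another or no transformation, no trend, centring, a low-error filter (mean of at least 0.05 as a fraction), blocks, leaving out tRNA ends, insertions or a library, and medians.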

Additional observations from a re-analysis of the deposited data

How the results depend on the processing

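The count of nucleotides of the variable region past the limma threshold was 0 for the summed error and for each kind of error, and stayed at 0 with no transformation, log odds, no trend and centring. The low-error filter gave 2 of 239 for deletion (position 44 of Arg-CCG-2-1 and 45 of Glu-CTC-1-1, 0.837%, against 3.09% of all nucleotides). The filter took the mean over both genotypes, and position 44 of Arg-CCG-2-1 was under its cut in WT and kept only through KO. Leaving out the tRNA ends gave 1 (position 44 of Arg-CCG-2-1, 0.319% against 1.64%). Leaving out 1 library gave 0 to 1 for the summed error, 0 to 1 for mismatch, 0 to 3 for deletion and 0 for insertion, with the highest counts without KO replicate 2. In a fit with the replicate number as a block, mismatch passed 1 (position 44 of Glu-TTC-1-1, against 0.967% of all nucleotides), deletion passed 1 (position 44 of Arg-CCG-2-1, limma adjusted p = 0.0319, against 1.53%) and the summed error and insertion 0. Deviations of equally numbered libraries had a correlation of -0.247 over 3721 nucleotides, so the number was not taken as a pairing; with the numbers crossed, an alternative chosen after seeing the data, the summed error passed 1 (against 1.85% of all nucleotides), mismatch 2 (against 1.48%) and deletion and insertion 0.

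With the library mean subtracted, KO minus WT was -0.0885 points at 44, -0.212 at 45, -0.130 at 46, -1.02 at 47, 0.305 at 48 and -0.418 over v. As a difference of medians over references it was -1.13 at 45 and 1.43 at 46. Long minus short, KO minus WT, was 0.124 points by medians and 0.245 at positions 44 to 48, against -0.124. Region minus rest was -0.828 by medians. The WT level of long minus short was -7.78 by medians, -4.85 with the low-error filter and -3.82 without insertion. At positions 44 to 48, of which long references lack 45 and 47, it was -10.2. The WT gap of 5-nucleotide over 4-nucleotide regions, a comparison added after seeing the data, was 31.1 by medians, 28.1 without insertion and 25.9 to 27.7 leaving out a WT library. The cause of these shifts was not tested.

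Of the named nucleotides, 21 values changed sign, each from a difference that did not pass. Centring turned position 47 of Ala-AGC-8-2 (-0.853), Ala-CGC-2-1 (-0.931) and Ala-TGC-3-1 (-0.453), 48 of Ala-CGC-2-1 (-0.373), 46 of Cys-GCA-3-1 (-1.08) and 48 of Tyr-GTA-2-1 (-0.295), and leaving out insertion turned 48 of Tyr-ATA-1-1 (0.645). Leaving out 1 library spanned -2.82 to 0.915 points at 46 and -1.71 to 2.62 at 47 of Ala-AGC-8-2, -0.304 to 1.06 at 47 and -0.192 to 2.06 at 48 of Ala-CGC-2-1, -8.02 to 0.00778 at 46 of Arg-TCT-1-1, -1.59 to 2.04 at 46 and -2.68 to 5.32 at 47 of Cys-GCA-3-1, and -5.01 to 1.67 at 47 and -3.38 to 3.04 at 48 of Tyr-ATA-1-1. Mismatch at 44 of Glu-TTC-1-1 passed with the block (10.99 points, limma adjusted p = 0.0182) and without KO replicate 2 (16.8 points, limma adjusted p = 4.28e-06), while over its alternatives for the sum the adjusted p ran from 0.00234 to 0.998. Depth is unknown, so the share of counting error in any of these spreads cannot be given.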
